A study of Homo sapiens with 9 samples.

Results

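Growth arrest genes and stress-induced brakes on the growth kinase mTOR were followed in H295R cells. The set holds 10 genes chosen by symbol: CDKN1A, GADD45A, GADD45B, GADD45G, MDM2, SESN1, SESN2, DDIT4, DDIT4L and BBC3. On the arrays 9 of the 10 were measured among 19775 genes, by 22 probe sets in all, and BBC3 is not analysed here because its probe set carries several gene symbols. H295R cells derive from a human carcinoma of the adrenal cortex and secrete steroids, and this single line stands here for that tissue. The vehicle group received DMSO, the second group 100 nM angiotensin II, the hormone that drives aldosterone secretion, and the third 100 nM torcetrapib, labelled CP-529414, a drug candidate that blocks cholesteryl ester transfer protein (CETP). Each group held 3 arrays, all of cells collected at 3 h. The study asked whether CETP inhibitors turn on the renin-angiotensin-aldosterone pathway in adrenal cells.

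Cells that meet DNA damage, nutrient shortage or other stress slow their division and their growth. The transcription factor p53 is a main route to the first of these: it induces CDKN1A, an inhibitor of cyclin-dependent kinases, together with MDM2, the ubiquitin ligase that destroys p53, and BBC3, a protein that promotes cell death. The GADD45 proteins are small stress sensors that bind and activate an upstream kinase of the JNK and p38 pathways, and many signals other than p53 induce them. The sestrins SESN1 and SESN2 restrain mTOR complex 1 through its amino acid sensing arm, and DDIT4 and DDIT4L restrain it through the TSC complex. In the adrenal cortex, angiotensin II acts on steroid output and also on growth.

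The DNA just upstream of the transcription start is shown for 5 of these genes because their responses to angiotensin II differed in direction and size, as given further on. The windows come from RefSeq on GRCh38.p14, run 5′ to 3′ on the strand of the gene, and end at the base before the start. They lie at chr6:36678464-36678713 on the plus strand for CDKN1A, chr19:2475877-2476126 on the plus strand for GADD45B and chr9:89604762-89605011 on the plus strand for GADD45G. For DDIT4 the window is chr10:72273674-72273923 on the plus strand, and for DDIT4L chr4:100190469-100190718 on the minus strand. Capitals mark matches to the motifs searched.
CDKN1A: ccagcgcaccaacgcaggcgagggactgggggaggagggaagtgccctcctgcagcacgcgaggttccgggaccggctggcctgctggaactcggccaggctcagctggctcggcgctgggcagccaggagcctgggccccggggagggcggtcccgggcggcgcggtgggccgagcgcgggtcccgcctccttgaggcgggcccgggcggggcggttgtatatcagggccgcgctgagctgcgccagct
GADD45B: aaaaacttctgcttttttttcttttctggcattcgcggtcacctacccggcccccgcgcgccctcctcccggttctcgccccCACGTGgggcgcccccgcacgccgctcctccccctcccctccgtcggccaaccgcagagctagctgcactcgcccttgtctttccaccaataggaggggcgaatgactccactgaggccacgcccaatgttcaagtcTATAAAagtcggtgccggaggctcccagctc
GADD45G: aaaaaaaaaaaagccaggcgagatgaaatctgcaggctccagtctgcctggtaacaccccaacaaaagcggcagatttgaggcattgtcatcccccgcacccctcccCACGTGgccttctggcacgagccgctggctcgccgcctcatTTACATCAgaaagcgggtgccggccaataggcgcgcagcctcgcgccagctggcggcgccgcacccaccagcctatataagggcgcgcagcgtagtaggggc
DDIT4: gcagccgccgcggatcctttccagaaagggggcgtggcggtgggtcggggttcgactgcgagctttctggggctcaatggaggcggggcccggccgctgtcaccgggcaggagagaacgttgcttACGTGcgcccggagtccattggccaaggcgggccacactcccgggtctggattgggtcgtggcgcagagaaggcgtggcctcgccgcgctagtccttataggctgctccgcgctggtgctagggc
DDIT4L: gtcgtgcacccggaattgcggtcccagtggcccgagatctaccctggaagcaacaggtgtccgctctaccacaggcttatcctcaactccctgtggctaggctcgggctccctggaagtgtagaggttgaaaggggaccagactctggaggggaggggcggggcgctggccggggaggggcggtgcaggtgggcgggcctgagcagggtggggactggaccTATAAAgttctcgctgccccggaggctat

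GADD45B and DDIT4L shared the TATA box string TATAAA, which 10.7% of all 35116 promoter windows of 250 bases hold on either strand. It began 31 bases before the start of GADD45B and 29 bases before that of DDIT4L. Only this exact string was searched, so a close variant such as tatataag near the start of GADD45G was not counted. The hypoxia element core ACGTG, present in 18.5% of windows, was found in GADD45B and GADD45G, in each as the palindrome CACGTG that matches on both strands, and once in DDIT4, 125 bases before the start. BBC3 held the same palindrome, 232 to 227 bases upstream, and a pair of overlapping inner MDM2 windows held the core on the minus strand. GADD45G also held the ATF4 element TGATGNAA on the minus strand, 102 to 95 bases upstream, as 3.14% of windows do. The CDKN1A and SESN2 windows held none of the 9 motifs searched. MDM2, which has several start sites, held the AP-1 motif TGACTCA in the same pair of windows (4.2% of all windows), and BBC3 held it on the minus strand. SESN1 held the p53 decamer in its first window (5.57% of all windows). The cyclic AMP response element TGACGTCA (1.65% of windows), the NR4A element AAAGGTCA (1.05%) and the EGR element GCGTGGGCG (0.72%) matched no window of these genes, and the shorter core TGACG (21.2%) matched the second SESN1 window. Windows were found for 9 of the 10 genes, and GADD45A, which had none, was not searched. A match here describes letters and not binding.

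The 9 arrays were alike in scale, with a median probe set between 5.54 and 5.60 on the log2 scale used throughout. Precision is limited by their number. In 52.1% of probe sets a value recurs exactly on another array, among them those of GADD45B, SESN2 and DDIT4, although no 2 arrays are identical throughout. No source used here states the origin of these repeats, and their effect on the spread was not tested. A sign of RNA quality, the 5′ minus the 3′ log2 signal of the ACTB and GAPDH control probe sets, stood at -0.50 ± 0.22 (SD, n = 3) in the DMSO group, at -0.62 ± 0.02 in the angiotensin II group and at -0.24 ± 0.03 in the torcetrapib group. It was highest on the 3 torcetrapib arrays (exact permutation p = 0.1, two-sided, against either group, the smallest possible with 3 arrays each). The margin was narrow: DMSO replicate 2 stood at -0.2758 and torcetrapib replicate 1 at -0.2751. Of 8 adrenocortical markers, 7 were measured and none lay below the median gene; 3 of them passed with angiotensin II and 1 with torcetrapib. The markers of adrenal medulla, fibroblasts, endothelium and immune cells lay mostly below it, and the lowest limma adjusted p among them in any comparison was 0.0863. Whether each array had a culture of its own is not stated in the labels, and the p-values therefore reflect the spread of these samples, which may be technical. Fewer cells that express a gene and less RNA of it per cell cannot be told apart in such bulk samples.

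Angiotensin II raised all 3 GADD45 genes, CDKN1A and SESN2 and lowered DDIT4L. In limma's fit over all genes, 6 of the 9 measured genes passed an adjusted p of 0.05, 5 higher and 1 lower. Over the whole array 6.12% of genes passed (1210 of 19775), with 3.36% higher and 2.76% lower. The median difference of the 9 genes was 0.60, beside 0.01 for all genes. Levels on the 3 arrays stood apart from those with DMSO for 7 of the 9, against 17.6% of all genes. They were all above for 5 (9.26% of all genes) and all below for 2 (8.37%).

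GADD45A, induced by p53 and by other stress signals, read 10.13, 10.08 and 10.09 with DMSO and 12.11, 11.92 and 11.94 with angiotensin II. The torcetrapib arrays read 10.61, 10.74 and 10.74, so each group stood clear of the other groups, with torcetrapib in between. The rise with angiotensin II was 1.89 ± 0.05 (SE), or 3.71-fold (limma adjusted p = 9.52e-13). GADD45B, first known as a gene of myeloid differentiation, read 8.10, 7.90 and 8.19 with DMSO, 9.99, 9.82 and 10.12 with angiotensin II and 8.14, 8.19 and 8.02 with torcetrapib. Here the torcetrapib arrays lay within the range of the DMSO arrays. On this brightest probe set angiotensin II raised the gene by 1.91 ± 0.09, or 3.77-fold (limma adjusted p = 4.45e-10). Of its 4 probe sets, those with means of 8.59 and 7.70 rose by 1.48 each and the dimmest by 0.36, described further on. GADD45G, the third of the family, read 7.29, 7.22 and 7.30 with DMSO, 8.79, 8.62 and 8.82 with angiotensin II and 7.55, 7.55 and 7.49 with torcetrapib. Its rise with angiotensin II was 1.47 ± 0.07, or 2.78-fold (limma adjusted p = 1.30e-09), and the torcetrapib arrays all lay above the DMSO arrays. Among the 665 genes that rose with angiotensin II, ordered by size on the brightest probe set, GADD45B stood at place 39, GADD45A at 40 and GADD45G at 59.

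CDKN1A, which encodes the kinase inhibitor p21, read 10.38, 10.28 and 10.29 with DMSO and 11.14, 11.14 and 11.27 with angiotensin II. With torcetrapib it read 10.37, 10.46 and 10.36, which overlaps the DMSO arrays. The rise with angiotensin II was 0.87 ± 0.05, or 1.82-fold (limma adjusted p = 6.66e-09), at place 143 among the rises. MDM2, the antagonist of p53, spread far more widely on its brightest probe set. That probe set read 8.92, 9.66 and 9.16 with DMSO, 10.43, 9.04 and 10.06 with angiotensin II and 9.69, 9.70 and 9.72 with torcetrapib. The angiotensin II arrays lay on both sides of the DMSO arrays, and the difference of 0.60 ± 0.25 did not pass (limma adjusted p = 0.222). Without angiotensin II replicate 1 the difference was 0.31 and did not pass, and without replicate 2 it was 1.00 (limma adjusted p = 0.00104). MDM2 also passed on all 9 arrays with array weights, averaged over its probe sets (adjusted p = 0.0102) and on the probe set brightest with DMSO (adjusted p = 0.00569). The array weights gave angiotensin II replicate 1, where MDM2 read highest, a weight of 6.15.

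SESN2, a sestrin that senses leucine, read 8.07, 7.74 and 8.07 with DMSO, 8.45, 8.32 and 8.49 with angiotensin II and 7.90, 8.06 and 7.91 with torcetrapib. The angiotensin II arrays all exceeded those of both other groups, and the rise was 0.46 ± 0.09, or 1.38-fold (limma adjusted p = 0.00442). SESN1, its relative, read 7.33, 7.22 and 7.42 with DMSO, 6.997, 7.10 and 7.14 with angiotensin II and 7.31, 7.27 and 7.20 with torcetrapib. Its angiotensin II arrays were all lower than the DMSO arrays, yet the difference of -0.24 ± 0.08 did not pass (limma adjusted p = 0.113). DDIT4, also called REDD1 and induced by hypoxia and glucocorticoids in many cells, read 6.68, 6.69 and 6.97 with DMSO and 6.99, 6.83 and 6.91 with angiotensin II. With torcetrapib it read 6.83, 6.86 and 6.77, and all 3 groups overlapped. The difference with angiotensin II was 0.13, with a 95% interval from -0.07 to 0.33 (limma adjusted p = 0.587).

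DDIT4L, its paralogue, also called REDD2, read 12.17, 12.19 and 12.23 with DMSO, 11.11, 10.97 and 11.17 with angiotensin II and 11.91, 11.89 and 11.87 with torcetrapib. The 3 groups did not overlap, and torcetrapib again lay in between. The fall with angiotensin II was to a level 2.16-fold lower, at place 9 among the 545 falls (difference -1.11 ± 0.04, limma adjusted p = 6.30e-11).

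**Figure D1:**
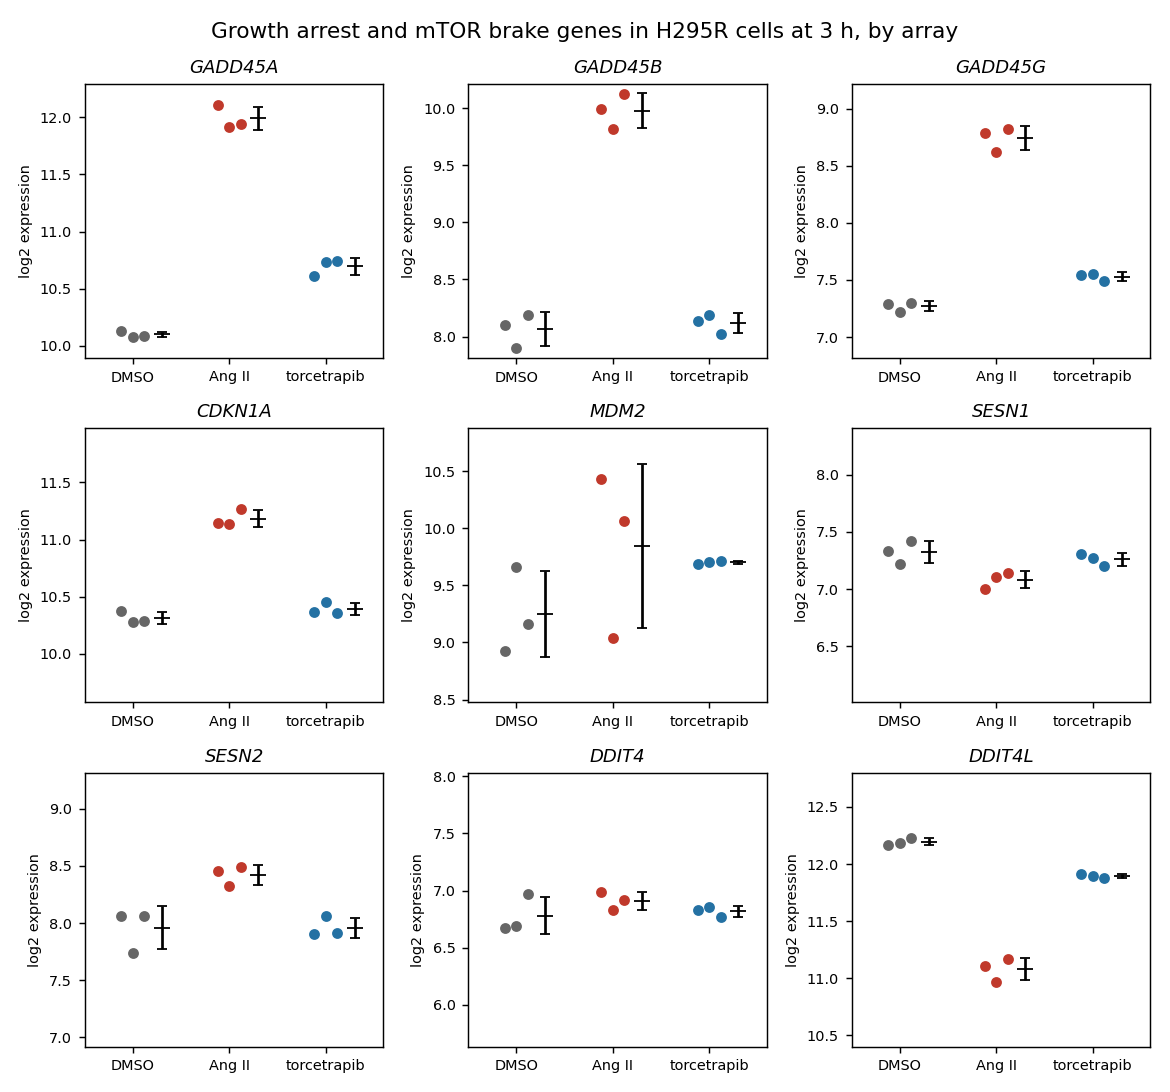
Log2 expression (y axis, the same span in each panel, centred on its gene) of the 9 measured genes on each array, by group (x axis). Points are arrays, and the bar beside them is the mean ± SD of 3 arrays. The GADD45 genes and CDKN1A are high on all 3 angiotensin II arrays, DDIT4L is low there, and the MDM2 arrays of angiotensin II spread from 9.04 to 10.43.

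Torcetrapib raised GADD45A and lowered DDIT4L, and no other of the 9 genes passed in limma. These 2 of 9 stand beside 1.16% of all genes that passed (229 of 19775), 0.592% higher and 0.566% lower. The total of 229 became 917 without DMSO replicate 2 and lay between 83 and 105 without any other DMSO or torcetrapib array. Higher calls made up 51.1% of the 229, but 35.6% of 270 when arrays were centred on their medians. GADD45A rose by 0.60 ± 0.05, or 1.51-fold (limma adjusted p = 1.08e-05), at place 39 among 117 rises. The DDIT4L level was 1.23-fold lower (difference -0.30 ± 0.04, limma adjusted p = 0.00241), at place 48 among 112 falls. That call ended when variances were moderated without the intensity trend (adjusted p = 0.116).

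For the other 7 genes the interval shows how closely these arrays fix the difference on the brightest probe set, given their spread, which may be technical. The 95% interval was -0.03 to 0.18 for CDKN1A, -0.13 to 0.24 for GADD45B, -0.24 to 0.11 for SESN1, -0.19 to 0.20 for SESN2 and -0.16 to 0.24 for DDIT4. In each of these 5 the arrays of the groups overlapped. Another GADD45B probe set, with a mean of 7.70, differed by 0.34 ± 0.09 with torcetrapib (limma adjusted p = 0.114), which lies above the interval given. GADD45G was higher on all 3 torcetrapib arrays by 0.26 ± 0.07, without passing (limma adjusted p = 0.109). MDM2 was also higher on all 3, by 0.46 ± 0.25 (limma adjusted p = 0.461), and its interval reached from -0.07 to 0.98. Arrays stood apart from DMSO for 4 of the 9 genes, 3 above and 1 below, beside 16.5% of all genes, 6.04% above and 10.5% below. The median difference was 0.05 for the 9 genes and -0.03 for all genes. Both treatments are compared with the same 3 DMSO arrays, and the RNA quality index, higher with torcetrapib, moves with that group. With the index as a covariate, the torcetrapib difference of GADD45A was 0.61 (limma adjusted p = 0.000456) and that of DDIT4L -0.32 (adjusted p = 0.0326), while MDM2 went to 0.0084. That fit rests on the spread of the index within groups, which was widest with DMSO, and cannot fully part the index from the treatment.

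Set against each other at the same 100 nM and 3 h, the treatments differed in 6 of the 9 genes. With torcetrapib GADD45B was 3.63-fold lower than with angiotensin II (limma adjusted p = 1.04e-09), GADD45A 2.45-fold lower (adjusted p = 1.64e-10) and GADD45G 2.32-fold lower (adjusted p = 2.07e-08). CDKN1A was 1.73-fold lower (limma adjusted p = 2.84e-08) and SESN2 1.38-fold lower (adjusted p = 0.00378). DDIT4L was 1.75-fold higher (limma adjusted p = 5.29e-09). Of all genes 11.3% passed in this comparison, 4.61% higher and 6.68% lower with torcetrapib. Arrays of the treatments stood apart for 7 of the 9 genes (28.6% of all genes), with torcetrapib above for 2 (10.3%) and below for 5 (18.4%). The GADD45B call ended without probe sets marked as matching several transcripts, where the gene is read from its dim probe set (difference -0.26, limma adjusted p = 0.0920). The SESN2 call ended with the RNA quality index as a covariate (difference -0.21, adjusted p = 0.753). MDM2 (-0.14 ± 0.25), SESN1 (0.18 ± 0.08) and DDIT4 (-0.09 ± 0.09) did not pass (limma adjusted p = 0.771, 0.194 and 0.596).

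**Figure D2:**
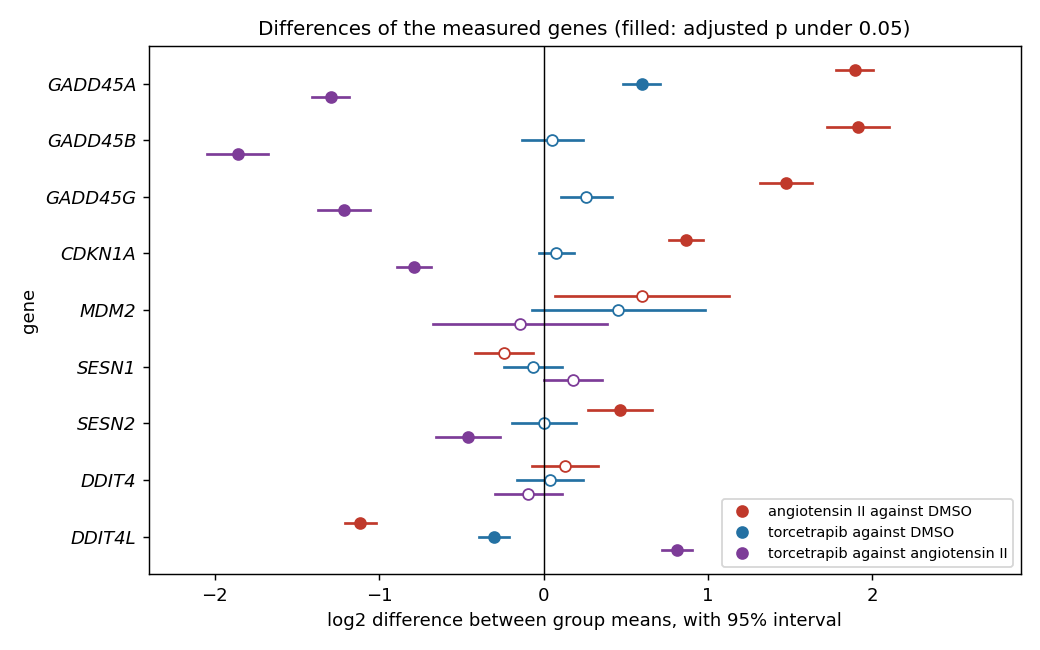
Log2 difference between group means (x axis) with its 95% interval for the 9 measured genes (y axis) in the 3 comparisons. Filled points passed an adjusted p of 0.05. GADD45A and DDIT4L are filled in all 3 comparisons, while GADD45B, GADD45G, CDKN1A and SESN2 are filled in both comparisons with angiotensin II only.

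Genes with several probe sets allow a check within the array. All 4 probe sets of GADD45B rose with angiotensin II in a fit over all probe sets, by 0.36 to 1.91, and none passed with torcetrapib, where they ran from 0.04 to 0.34 (limma; 1 of the 4 at an unadjusted p under 0.05). The smallest rise belonged to a dim probe set with a mean of 5.78, the only one of the 4 not marked as matching several transcripts. Both SESN2 probe sets rose with angiotensin II, by 0.46 and 0.61. All 10 MDM2 probe sets were positive with angiotensin II and 2 passed. One of these had a mean of 9.43, close to the 9.60 of the brightest, and a far narrower spread: it lay between 9.18 and 9.40 with DMSO, 9.51 and 9.83 with angiotensin II and 9.21 and 9.36 with torcetrapib. On that probe set MDM2 was higher with angiotensin II by 0.41 ± 0.09 (limma adjusted p = 0.0231), and it differed by -0.04 ± 0.09 with torcetrapib (adjusted p = 0.895). The other was dimmer, with a mean of 5.02, and rose by 0.79 ± 0.17 (limma adjusted p = 0.0250). The MDM2 value therefore depended on the probe set, for torcetrapib in sign as well.

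**Figure D3:**
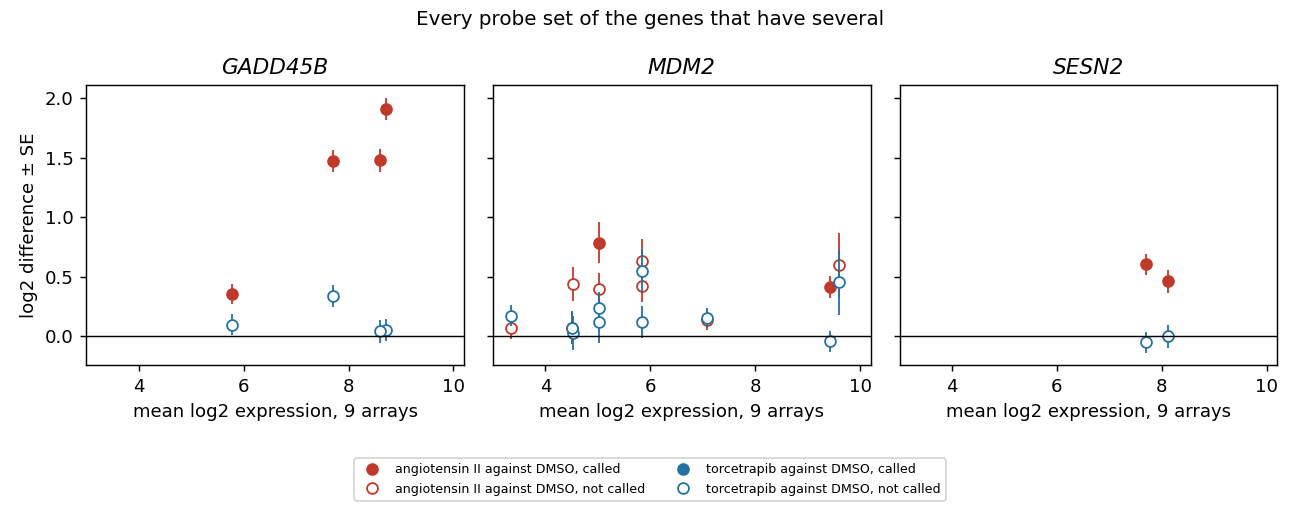
Log2 difference ± SE (y axis) of each probe set against its mean log2 expression over 9 arrays (x axis), for GADD45B (4 probe sets), MDM2 (10) and SESN2 (2). Filled points passed an adjusted p of 0.05 over all probe sets. All GADD45B points of angiotensin II are filled and none of torcetrapib is.

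Changes of related genes of the set were set side by side. Their differences within each array were compared for 5 pairs in 3 comparisons, a choice made after the values had been seen. In these 15 tests an exact two-sided permutation test cannot go below p = 0.1, which adjusts to 0.125. With angiotensin II, GADD45A and GADD45B differed in their change by -0.02 ± 0.13 (SE, exact permutation p = 0.9). GADD45A then changed by 0.42 ± 0.06 and GADD45B by 0.44 ± 0.07 more than GADD45G (exact permutation p = 0.1 for each). With torcetrapib GADD45A changed by 0.54 ± 0.11 more than GADD45B, and by 0.34 ± 0.06 more than GADD45G (exact permutation p = 0.1 for each). Each gene was read from its brightest probe set, and another GADD45B probe set differed by 0.34 with torcetrapib. With angiotensin II the GADD45B probe sets with means of 8.59 and 7.70 rose by 1.48 each, near the 1.47 of GADD45G. The pairs with GADD45B therefore depended on its probe set. GADD45A exceeded GADD45B by 2.47 to 2.72 on the torcetrapib arrays, and by 1.90 to 2.18 on the DMSO arrays, so these ranges did not overlap. The change of DDIT4L minus that of DDIT4 was -1.24 ± 0.09 with angiotensin II and -0.34 ± 0.08 with torcetrapib (exact permutation p = 0.1 for each). SESN2 gained 0.71 ± 0.09 on SESN1 with angiotensin II (exact permutation p = 0.1) and 0.07 ± 0.08 with torcetrapib (exact permutation p = 0.5).

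The pathways around these genes were followed through 7 lists of 136 genes, of which 127 were measured. With angiotensin II 22 rose and 7 fell, which is 22.8% of them beside 6.12% of all genes. With torcetrapib 4 rose and none fell, or 3.15% beside 1.16% of all genes. At an unadjusted p under 0.05 in limma, 36 of the 127 passed with torcetrapib, 17 higher and 19 lower, beside 13.3% of all genes. Of 23 measured p53 and DNA damage response genes, 4 rose and 1 fell with angiotensin II (21.7% against 6.12% of all genes), with a list median of 0.02 beside 0.01 for all genes. PLK2, a stress-induced polo-like kinase, rose by 0.94 ± 0.07 with angiotensin II (limma adjusted p = 7.31e-08) and by 0.70 ± 0.07 with torcetrapib (adjusted p = 1.96e-05), the only gene of its list to pass with torcetrapib. The p53-induced nuclease AEN rose by 0.33 ± 0.06, and the phosphatase PPM1D, which turns the p53 response off, by 0.32 ± 0.08. TP53INP1, a p53-induced antiproliferative protein, fell by 0.33 on the log2 scale. The calls of TP53INP1 and PPM1D ended under 9 and 7 of 20 alternative settings.

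Of 35 measured genes of the mTOR complexes and their regulators, 3 passed with angiotensin II, all lower (limma; 3 higher and 6 lower at an unadjusted p under 0.05). That is 8.57%, near the 6.12% of all genes, and no result about the list. PRKAB2, a subunit of the energy sensor AMPK, fell by 0.40, MIOS, a subunit of the GATOR2 complex that sestrins bind, by 0.36, and AKT1S1, an inhibitory partner of mTOR complex 1, by 0.35 on the log2 scale. The MIOS call ended under 6 of 19 alternatives and that of AKT1S1 under 3 of 20. With torcetrapib the kinase AKT2 passed at 0.32 ± 0.07 (limma adjusted p = 0.0252), but its difference was -0.28 on a probe set that matches a single transcript, and its call ended under 8 more alternatives. A further list held CDK inhibitors, cyclins and CDKs together with PCNA, RB1 and E2F1, 19 of them measured. CDKN1B was the 1 gene of this list that passed with angiotensin II, a share of 5.26%, also near that of all genes. None passed with torcetrapib in limma, with 9 at an unadjusted p under 0.05. CDKN1B, the inhibitor p27 and a relative of CDKN1A, fell by 0.52 on the log2 scale (limma adjusted p = 2.20e-06) while CDKN1A rose. The list of GADD45 partner kinases, other stress kinases and the factor ATF2 had 11 genes measured, without MAP2K3, MAP2K7 and MAPK14. MAPKAPK2 alone passed with angiotensin II, at 0.35 ± 0.06, a share of 9.09% and near the 6.12% of all genes. None passed with torcetrapib (limma; 2 at an unadjusted p under 0.05, both lower), beside 1.16% of all genes. Averaging the probe sets of MAPKAPK2 took its call away.

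In the BCL2 family, which sets the threshold of cell death, 5 of 14 genes rose and none fell with angiotensin II (6 and 0 at an unadjusted p under 0.05 in limma). That is a share of 35.7% beside 6.12% of all genes. MCL1, which protects cells, rose by 1.00 ± 0.03, or 2.00-fold (limma adjusted p = 4.17e-12). PMAIP1 (0.48 ± 0.10), BIK (0.43 ± 0.05) and BCL2L11 (0.30 ± 0.07), which promote death, rose as well, the last with a call that ended under 5 of 20 alternatives. The fifth gene that rose was BCL2L2, which like MCL1 protects cells (0.26 ± 0.06, limma adjusted p = 0.0151). With torcetrapib MCL1 alone passed, at 0.14 ± 0.03 (limma adjusted p = 0.0463), a share of 7.14% beside 1.16% of all genes. It lost its call under 13 of 20 alternatives. A list of 16 genes held ATF4, the factor of the integrated stress response that also induces SESN2 and DDIT4, with its targets and the upstream kinases EIF2AK3 and EIF2AK4. With angiotensin II 8 of the 16 rose and 1 fell (56.2% against 6.12% of all genes), ATF4 (0.37 ± 0.04) and EIF2AK3 (0.37 ± 0.07) among the rises, and the list median was 0.33 beside 0.01 for all genes. VLDLR was the gene that fell, by 0.43 on the log2 scale (limma adjusted p = 0.00790). The 7 that did not pass were ATF5 (0.32), ASNS (0.16), SHMT2 (0.05), PHGDH (0.01), TRIB3 (-0.06), PSAT1 (-0.11) and EIF2AK4 (-0.16). ATF4, EIF2AK3, VLDLR and these 7 were named after their values had been seen. PPP1R15A, also called GADD34, rose by 1.80 ± 0.07, the transcription factor DDIT3 by 0.84 ± 0.06, CHAC1, which degrades glutathione, by 0.71 ± 0.09 and the amino acid transporter chain SLC3A2 by 0.65 ± 0.05. None of the 16 passed with torcetrapib (limma; 3 higher and 3 lower at an unadjusted p under 0.05). As only 1.16% of all genes passed there, this is no result about the list. Between the treatments, 10 of the 16 were lower with torcetrapib than with angiotensin II, beside 6.68% of all genes.

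The glucocorticoid receptor, the cortisol-inactivating enzyme HSD11B2 and genes that the receptor induces were followed because these cells make cortisol and DDIT4 is a known target of the receptor. Of 9 measured genes 4 rose and 1 fell with angiotensin II, a share of 55.6% beside 6.12% of all genes. The receptor gene NR3C1 (-0.20), FKBP5 (0.08), ZBTB16 (0.18) and HSD11B2 (0.03) did not pass there. DUSP1, a phosphatase of MAP kinases, rose by 1.33 ± 0.05 (0.55 as the mean of its probe sets), the kinase SGK1 by 0.75 ± 0.06 and CEBPD by 0.42 ± 0.10. The CEBPD call ended under 5 of 20 alternatives. KLF9 rose by 1.22 ± 0.11 on its brightest probe set, and differed by -0.05 on the probe set brightest with DMSO. TSC22D3, the glucocorticoid-induced leucine zipper, was the gene that fell. With torcetrapib DUSP1 rose by 0.88 ± 0.05 (limma adjusted p = 2.38e-08, and 0.54 as the mean of its probe sets). No other gene of the list passed, a share of 11.1% beside 1.16% of all genes. The lists share inducers, and the GADD45 genes, DUSP1 and PPP1R15A also answer to many growth signals.

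**Figure D4:**
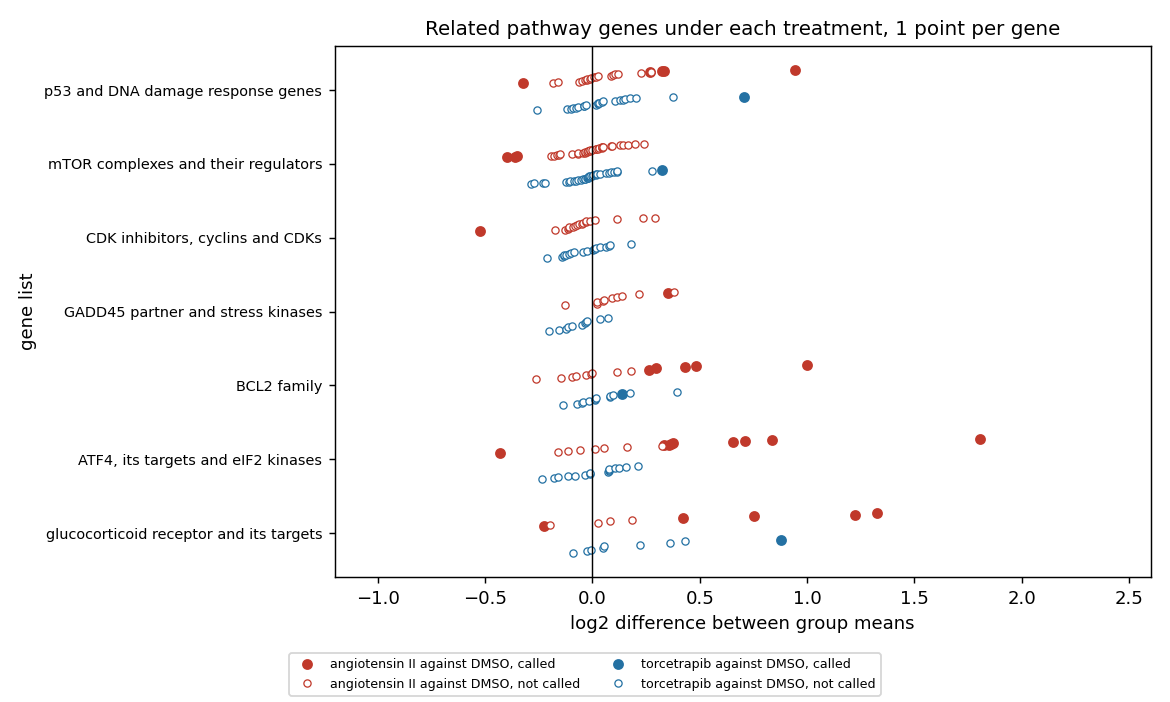
Log2 difference between group means (x axis) of every measured gene in 7 lists (y axis), 1 point per gene, for each treatment against DMSO. Filled points passed an adjusted p of 0.05. Filled points of angiotensin II number 29, of which 22 lie to the right of 0, and those of torcetrapib number 4, all to the right.

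The genes whose pattern was nearest to each responsive member were found by the root mean square distance of centred log2 values over the 9 arrays, among 449 genes that changed by at least 0.5 in the same comparison. For GADD45A the nearest was SPRY2, a feedback inhibitor of growth factor signalling, at a distance of 0.0799, with differences of 1.92 with angiotensin II and 0.60 with torcetrapib. CREB5 and JUN followed at 0.117 and 0.125. GADD45B lay nearest to IER3 (0.0826), an early response gene, which differed by 2.03 with angiotensin II and 0.09 with torcetrapib, then to SERTAD1 (0.131) and PPP1R15A (0.139). GADD45G lay nearest to the AP-1 subunit JUNB (0.0432), then to NFKBID (0.0607) and FAM131B-AS2 (0.0828). CDKN1A lay nearest to the phosphatase DUSP14 (0.0504), then to DDIT3 (0.0631) and the calcineurin inhibitor RCAN1 (0.0692). DDIT4L lay nearest to ID3 (0.0826), an inhibitor of basic helix-loop-helix factors, which differed by -0.99 with angiotensin II and -0.32 with torcetrapib, and then to ARRDC4 (0.0949) and BORA (0.0983). These neighbours were chosen by the distance, which is given as a description with no test.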

How the data were processed

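Gene expression was measured on Affymetrix arrays in 9 samples. The deposited log2 values per probe set were made with RMA, a method that corrects, quantile normalises and summarises probes, per the submitters' processing notes. Its software and chip description are not given in any source used here. RMA tends to compress large differences. The series text also lists angiotensin II under CETP inhibitors, which was disregarded.

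Of 54675 probe sets 62 were controls, and 41091 carried 1 gene symbol. Each of 19775 genes was read from its brightest probe set by the mean of the 9 arrays. One model of 3 group means was fitted to all arrays with limma 3.58.1 in R 4.3.3, leaving 6 residual degrees of freedom, with variances moderated on intensity. Two-sided p-values were adjusted for all genes by the Benjamini-Hochberg method, with a threshold of 0.05. Changes carry ± SE, levels ± SD, and intervals are 95%. The fit was tested on simulated data. Members and lists were chosen with earlier results of these data known. Named genes were all members, up to 4 passing genes per list and treatment with the largest difference, and 3 nearest genes per member that changed by 0.5 or more. TSC22D3, BCL2L2, ATF4, EIF2AK3, VLDLR and the list genes given as not passing were named after their values were seen. Alternatives changed the variance model, the dim-gene filter, scaling, the probe set rule, array weights, the groups fitted, the RNA quality covariate, or left out each array.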

Additional observations from a re-analysis of the deposited data

How the results depend on the processing

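Over 20 alternatives, 503 of 528 recomputed member values kept their direction and their side of the threshold. Changing only the variance model or the dim-gene filter, or leaving out an array of the group not compared, keeps the log2 difference. Under those settings only the side of the threshold could change. With angiotensin II against DMSO, the calls of GADD45A, GADD45B, GADD45G and DDIT4L held in 20 of 20, and those of CDKN1A and SESN2 in 19 of 19; CDKN1A, SESN1, SESN2 and DDIT4 have no value without _x_at and _s_at probe sets. GADD45B fell to 0.36 there. MDM2 passed with the mean of probe sets (0.40), the probe set brightest on DMSO (0.41), array weights (1.1997) and without angiotensin II replicate 2 (1.00), and SESN1 with array weights (-0.32). GADD45G passed with torcetrapib under array weights (0.26, adjusted p = 0.0211). Array weights gave angiotensin II replicate 1 a weight of 6.15, against 0.448 to 1.86 for the others.

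Members passing with torcetrapib numbered 1 without the intensity trend, and those passing between the treatments 3 without _x_at and _s_at probe sets, where fewer genes are tested and the GADD45B call ended (-0.26, adjusted p = 0.0920). Genes passing with angiotensin II numbered 2712 under array weights. For torcetrapib against DMSO they numbered 50 without the trend, 519 quantile normalised (34.5% higher), 108 with the mean of probe sets, 136 without _x_at and _s_at probe sets, 1272 under array weights, 145 with only the groups compared, 76 with the index covariate, and 83 to 917 with 1 array left out. Between the treatments they numbered 6216 under array weights, 280 with the covariate, and 1351 to 2653 with 1 array left out. The cause was not tested.

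Signs turned for KLF9 with angiotensin II (-0.053, brightest on DMSO) and AKT2 with torcetrapib (-0.28, no _x_at or _s_at), which had passed, and for these differences, which had not. With torcetrapib against DMSO, MDM2 turned to -0.043 (brightest on DMSO) and SESN1 to 0.0013 (covariate). SESN2 turned to -0.023 when centred, -0.020 quantile normalised, -0.025 averaged over probe sets and -0.053 under array weights. RCAN1 turned to -0.0079 when centred and -0.0018 under array weights. With 1 array left out, the torcetrapib difference ran from -0.028 to 0.12 for GADD45B and from -0.11 to 0.056 for SESN2, both lowest without DMSO replicate 2. It ran from -0.014 to 0.13 for DDIT4 (-0.0050 without DMSO replicate 2) and from -0.044 to 0.047 for RCAN1. MDM2 between the treatments ran from -0.54 to 0.15, highest without angiotensin II replicate 1.

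Of 420 recomputed list counts 98 moved by over 1.5 times. No paired analysis was possible because the labels give no replicate numbers that groups share.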
